A study of Mus musculus with 55 samples.

Results

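The response of wild type (WT) mouse liver to TCPOBOP was described from 5 RNA-seq libraries of TCPOBOP-treated livers and 5 of untreated livers, which are 10 of the 55 libraries of the series. All genes of the deposited count table of this comparison were taken, 719 genes of the 4113 that appear in at least 1 of the study's RNA tables. Per the labels and methods, the mice were male C57Bl6 animals of 45 to 50 days, and the treated group received 3 mg/kg TCPOBOP by intraperitoneal injection 24 h before the whole liver was taken. The control livers are labelled untreated, and whether these animals were injected with vehicle is not clear from the sources used here. None of the 10 livers carries the Setd8 (Kmt5a) deletion of the wider study. That study set them beside livers in which this histone methyltransferase gene is deleted in hepatocytes.

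TCPOBOP is a synthetic agonist of the constitutive androstane receptor (CAR, Nr1i3), a nuclear receptor that binds DNA together with RXR and switches on genes of drug metabolism. In mouse liver it is known both as an inducer of Cyp2b10, the classical CAR target, and as a mitogen that drives hepatocytes to enlarge and divide without prior injury. The liver clears lipophilic compounds in steps, with oxidation by cytochrome P450 enzymes (phase I), conjugation by transferases (phase II) and export by membrane transporters.

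The table holds raw counts and normalized counts, the latter being the raw counts multiplied by 1 factor per library. It lists only genes that the study had already selected as changed in these same libraries, by an FDR and a fold threshold of its own. Tests on these libraries therefore repeat a selection and are not independent support, and a gene that is not listed could not be examined. Nr1i3 and Kmt5a are not listed. Summed over the listed genes, raw counts ranged from 1389901 to 1849046 in untreated libraries and from 2609310 to 3706582 in TCPOBOP libraries. These sums hold the change of the listed genes itself and do not give the depth of a library. A difference of a few counts in a gene could not be resolved. The headers name 2 runs, run A (3 libraries of each group) and run B (2 of each), without saying what a run stands for. Untreated replicate 4 stood apart from the other untreated livers in acute phase genes, and results that rest on it are given with and without it. Of the hepatocyte markers examined, Fabp1 alone of 12 is listed, with 17859 to 40753 normalized counts in untreated libraries. In whole liver RNA, a change in the number of cells of a type and a change in RNA per cell cannot be told apart.

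Of the 719 genes, 679 passed the filter on low counts. A gene was called when its adjusted p in edgeR's quasi-likelihood test (Benjamini-Hochberg over 55450 annotated genes, since the table holds the selected ones only) was under 0.05 and its fitted log2 fold change was at least 1 in size. By this rule 459 genes were called, which is 67.6% of those tested, with 349 genes higher in TCPOBOP livers (51.4%) and 110 lower (16.2%). These shares describe a list selected for change, and nothing about the liver transcriptome as a whole can be read from them. Among called genes the median log2 fold change was 1.80 for the higher genes (quartiles 1.35 and 2.60) and -1.54 for the lower genes (quartiles -2.01 and -1.22). Rises were larger than falls at the extremes, with 138 genes up by at least 2 on the log2 scale and 28 down by as much. The highest untreated value lay below the lowest TCPOBOP value, or the reverse, in 557 of the 679 tested genes (82.0%) and in 457 of the 459 called genes. The 40 genes that were not tested had higher means with TCPOBOP in 29 cases and lower means in 11. All 459 called genes had the same sign within run A, as did the 458 that could be fitted within run B. Groups that do not overlap keep their sign in any subset of the libraries. This sameness was therefore nearly fixed by the calls and is not separate support. The other called gene could not be fitted there.

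**Figure D1:**
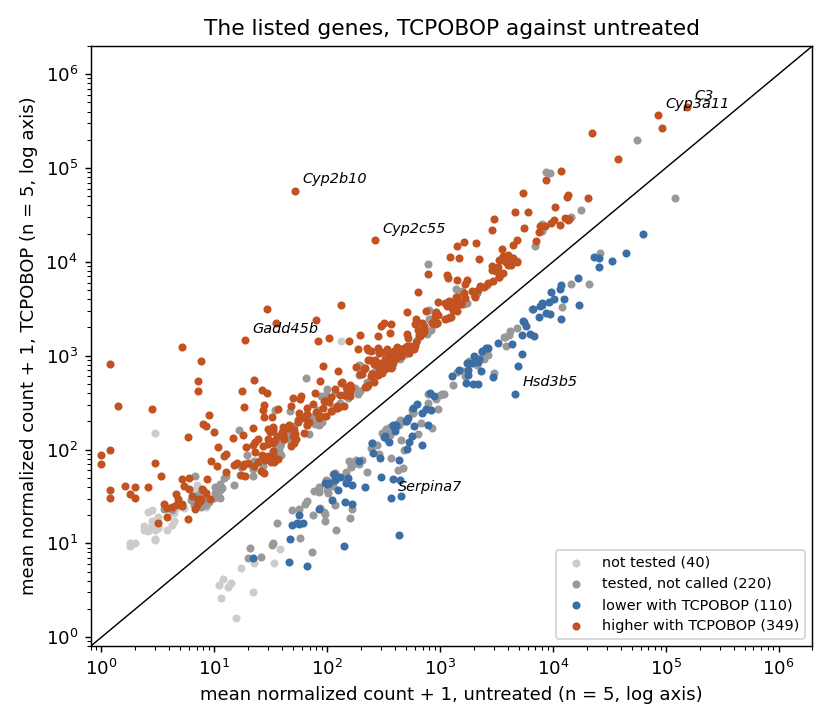
Each point is 1 of the 719 listed genes, placed by its mean normalized count plus 1 over the 5 untreated libraries (horizontal log axis) and over the 5 TCPOBOP libraries (vertical log axis), with the diagonal marking equal means. The 349 higher genes lie above the diagonal and reach farthest from it at Cyp2b10, while the 110 lower genes lie below it, and the band along the diagonal is empty because the table holds only genes selected as changed.

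The Cyp2b10 gene, which encodes a P450 of phase I metabolism, showed the largest rise among genes with more than a trace of reads in untreated liver. Cyp2b10 had 28, 25, 70, 28 and 106 normalized counts in untreated replicates 1 to 5, and 55856, 61594, 57008, 59425 and 53827 in TCPOBOP replicates 1 to 5. The treated libraries lay within a narrow range while the untreated ones spread about their low mean. The means were 51.4 ± 35.8 (SD, n = 5) and 57542 ± 3037 (SD, n = 5), a fitted log2 fold change of 10.12 ± 0.55 (SE), with an edgeR adjusted p of 6.57e-06. The exact two-sided permutation test over the 10 libraries gave its smallest possible value, 0.00794, for 457 of the 459 called genes, Cyp2b10 among them. Any gene whose groups do not overlap gives this value, and 557 of the 679 tested genes (82.0%) have such groups. The permutation result therefore restates the lack of overlap and is not separate support.

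Cyp2b10 lies on chromosome 7 from 25897620 to 25926624 on the plus strand (mm10). CAR with RXR is known to bind paired hexamers of the type AGGTCA or AGTTCA with 4 bases between them, a direct repeat 4 (DR4). In the 5000 bases before the RefSeq start of Cyp2b10, no exact DR4 was found on either strand and 1 match with 1 mismatch was found, at chr7:25895322-25895337, with its centre 2328 bases upstream of the start. Read on the minus strand, it differs from the repeat by T14A, counting from 1 at the 5′ end of the 16 bases. The match is shown because no other stretch within 1 mismatch of the repeat was found in this window of the most strongly induced P450 gene. Stretches with more mismatches were not searched for and may be present. The match is given alone and then in capitals within 300 bases of the plus strand (chr7:25895180-25895479, GRCm38.p6, the assembly that mm10 names).
Cyp2b10 DR4-like match, minus strand: AGGTCAggaaAGTACA
Cyp2b10 upstream window, plus strand: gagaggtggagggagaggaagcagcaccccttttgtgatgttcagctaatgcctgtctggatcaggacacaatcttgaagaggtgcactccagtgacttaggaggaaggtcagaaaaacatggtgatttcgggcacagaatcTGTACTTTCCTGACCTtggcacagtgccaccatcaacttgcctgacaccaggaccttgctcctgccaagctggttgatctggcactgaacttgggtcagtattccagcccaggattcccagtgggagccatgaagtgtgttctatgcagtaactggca
In the first of these lines the capitals mark the hexamers, and in the second the whole match. Such a match was found in the same window of 13.3% of all 27025 genes with a RefSeq promoter, so its presence is a description only. It lay in neither an H3K27ac nor an ATAC-seq peak of untreated WT liver.

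The Cyp2b and Cyp2c genes, neighbours on chromosomes 7 and 19 that encode the P450 family most tied to CAR, had the largest median change of the lists with at least 4 tested members. Of 22 genes in the list, 15 are in the table and 14 were tested, with 10 higher, 2 lower and 2 not called, and a median log2 fold change of 3.20 beside 1.35 over all tested genes. The groups of libraries did not overlap for any of the 15, as for 82.0% of all tested genes. Summed over these genes, normalized counts ran from 43476 to 80314 in untreated and from 471837 to 547532 in TCPOBOP libraries.

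Cyp2c55 had 182, 214, 306, 95 and 528 normalized counts in untreated replicates 1 to 5 and 15305, 12448, 12963, 25050 and 19669 with TCPOBOP, a log2 fold change of 6.01 ± 0.48 (SE, edgeR adjusted p = 0.000105). Cyp2c29 took far more reads, with 17700 to 27334 in untreated and 223381 to 255048 in TCPOBOP libraries, and rose by 3.41 ± 0.19 on the log2 scale (adjusted p = 6.57e-06). In both genes every treated library lay well above every untreated one. Cyp2c39 rose as well (6.78 ± 0.80) but scattered among treated livers, with 1172, 6860, 4190, 319 and 3152 normalized counts against 16 to 41 without treatment. Cyp2c65 rose from 0 to 2 to 14 to 61 normalized counts. Cyp2c37, Cyp2c50 and Cyp2c54 rose by 2.86, 2.98 and 3.31 on the log2 scale. The opposite direction was found for Cyp2c23, an epoxygenase of arachidonic acid, which fell from 4401 to 9131 normalized counts to 2254 to 2891, and for Cyp2c67, which fell from 4005 to 7553 to 1376 to 2026. Cyp2b9 was not tested, with 1 to 3 normalized counts in untreated libraries and 4, 157, 8, 54 and 525 in the treated ones, which scattered widely. These paralogs are close in sequence and how reads shared between them were counted was not stated, so the split among them is uncertain.

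Of 67 genes of the CYP3A family and other phase I enzymes 24 are in the table, with 19 higher, 3 lower and 2 not called (median log2 fold change 1.66), beside 51.4% higher over all tested genes. Cyp3a11, the major mouse CYP3A enzyme, had 49706, 75969, 95301, 88069 and 120069 normalized counts in untreated replicates 1 to 5 and 322753, 371372, 323466, 401487 and 397726 in TCPOBOP replicates 1 to 5. Every treated library was above every untreated one, and the log2 fold change was 2.08 ± 0.23 (SE, edgeR adjusted p = 0.00108). Por, which passes electrons to all microsomal P450 enzymes, rose from 4448 to 6942 normalized counts in untreated libraries to 27977 to 38268 (2.51 ± 0.18). Alas1, the rate-limiting enzyme of heme synthesis, rose from 8406 to 12566 to 36064 to 44429 (1.88 ± 0.16). Ces2a, a carboxylesterase that hydrolyses esters and amides, rose from 7220 to 10255 to 64113 to 88418 (3.08 ± 0.18). Akr1b7, an aldo-keto reductase, was almost silent without treatment, at 4, 3, 10, 4 and 12 normalized counts, and stood at 1020, 808, 845, 946 and 784 with it. Gm13857, a transcribed pseudogene, overlaps Akr1b7 on the opposite strand, and with counting that was not stated to use strand the reads of the pair cannot be told apart. Cyp3a41b (2.92 ± 0.42) and Cyp3a44 (2.89 ± 0.47) rose too and varied among livers, with 7446 to 25250 and 6447 to 14128 normalized counts with TCPOBOP. The 3 genes of this list that fell were Cyp2u1, Aox3 and Ces3b, by 1.66, 1.32 and 1.04 on the log2 scale. Called genes of the list numbered 22 over all libraries and 17 to 21 on leaving out 1 library.

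Of 68 phase II conjugation genes 20 are in the table and were tested, with 18 higher, 1 lower and 1 not called (median 1.64), beside 51.4% higher over all tested genes. Called genes of this list went from 19 to 13 without untreated replicate 3, the fewest on leaving out 1 library. Sult3a1, a sulfotransferase, had 1 raw count over the 5 untreated libraries and 97, 145, 126, 49 and 72 normalized counts in TCPOBOP replicates 1 to 5. Per unit of depth its counts were 455 times higher with TCPOBOP, with an exact 95% counting interval from 81.1 to 18000. Sult1e1, the estrogen sulfotransferase, had 0 to 4 normalized counts without and 30 to 123 with treatment (log2 fold change 5.06 ± 0.64). The glutathione transferases Gstm3 and Gstt3 rose by 3.26 ± 0.33 and 3.25 ± 0.20, Gstm3 from 1871 to 5255 to 21647 to 45592 normalized counts and Gstt3 from 587 to 999 to 6268 to 8180. Gstt3 overlaps the listed gene Gm20441 on the same strand. The bilirubin-conjugating Ugt1a1 rose less, from 11055 to 16544 normalized counts to 24241 to 30443, and it shares exons with Ugt1a2 and Ugt1a5, which are counted separately. Sult2a8 fell by 1.62 on the log2 scale. Gstp3, lower on average but not called, had 1675 normalized counts in untreated replicate 1 and 145 to 218 in the other untreated libraries.

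Of 26 hepatocyte transporters 8 are in the table, with 4 higher, 1 lower and 3 not called (median 1.15), close to the 51.4% higher over all tested genes and below their median of 1.35. Abcc3, which exports conjugates across the sinusoidal membrane, rose from 3853 to 5637 normalized counts to 14045 to 16547 (1.74 ± 0.15), and Abcc4, another such exporter, rose from 82 to 134 to 273 to 405 (1.64 ± 0.21). The canalicular pumps Abcc2 and Abcb1a rose by 1.08 and 1.22 on the log2 scale. Slco1a1, an uptake carrier of organic anions, fell from 6760 to 9968 to 2156 to 3496 normalized counts (-1.61 ± 0.19). The sterol exporter Abcg5 was not called, with 948 to 3170 normalized counts in untreated and 548 to 1055 in TCPOBOP libraries, groups that overlap. Called transporters numbered 3 without TCPOBOP replicate 3. Of 37 nuclear receptors and liver transcription factors only 4 are listed. Ahr, the receptor for dioxin-like compounds, rose from 574 to 907 to 1797 to 2704 normalized counts (1.68 ± 0.18). Cux2, Ppargc1a and Ppargc1b were not called, and the median of the 4 was 0.26.

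**Figure D2:**
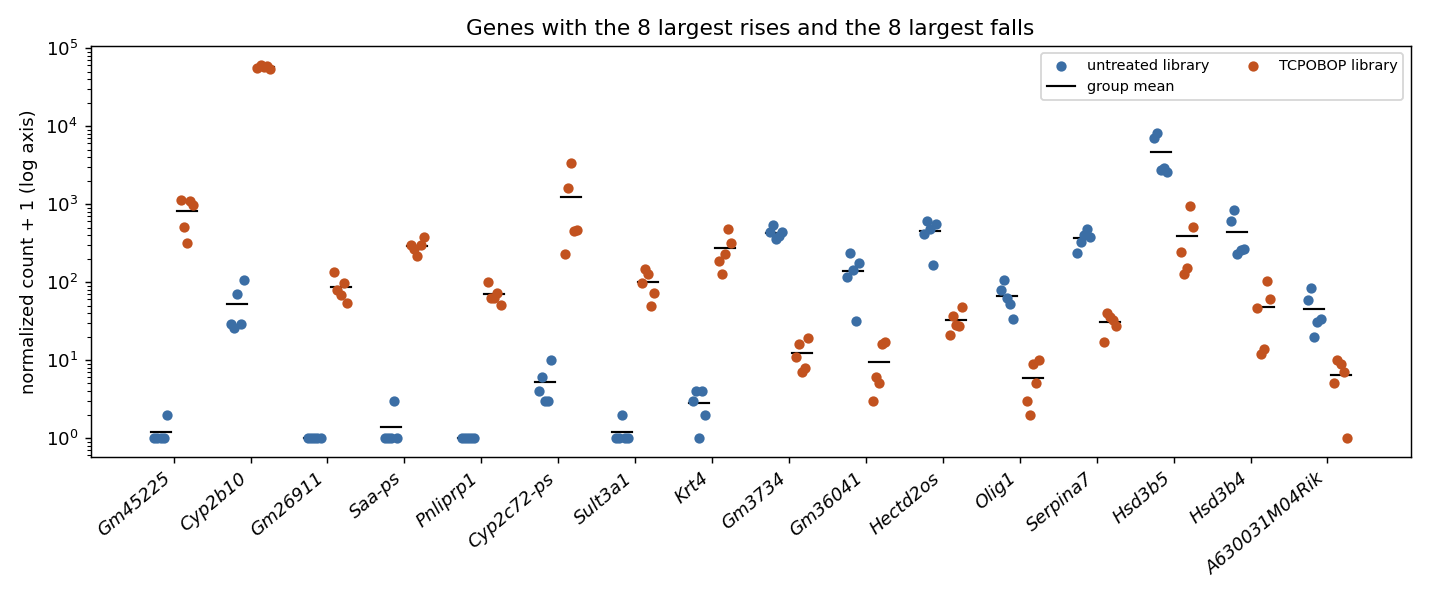
Points are the normalized counts plus 1 (log axis) of each of the 5 untreated and 5 TCPOBOP libraries, and black lines are group means, for the genes with the 8 largest fitted rises and the 8 largest fitted falls. The 16 genes were taken from called genes whose groups do not overlap, so that the 2 groups are apart in each was fixed by this choice. The treated Cyp2b10 libraries sit closely together at 53827 to 61594, and Gm26911 and Pnliprp1 have no count in any untreated library.

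Several genes that rose from near nothing are not drug-metabolizing enzymes. Gm45225, annotated as a pseudogene on chromosome 7 between Cyp2b10 and Cyp2b13, had 1 raw count in all untreated libraries and 1137, 512, 316, 1101 and 970 normalized counts in TCPOBOP replicates 1 to 5, a ratio of 3670 with a counting interval from 658 to 145000. Pnliprp1, a lipase-related gene best known from exocrine pancreas, had no count in the untreated libraries and 98, 61, 62, 72 and 50 with TCPOBOP, which is at least 104.3-fold higher when set against 3 counts over the untreated group. Gm26911, antisense to the listed gene Pdzrn3, likewise had none and then 135, 79, 68, 96 and 53, at least 131.1-fold higher. The pseudogenes Saa-ps and Cyp2c72-ps also rose. Saa-ps had 2 raw counts without treatment and 213 to 374 normalized counts with it, while Cyp2c72-ps went from 2 to 9 to 228, 1632, 3366, 450 and 462. Krt4, a keratin of squamous epithelia, rose from 2, 3, 0, 3 and 1 normalized counts to 188, 127, 231, 484 and 318 (log2 fold change 7.15 ± 0.57, edgeR adjusted p = 1.00e-04). Reads of pseudogenes may come from their parent genes, and the part of such reads was not tested.

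Growth-related genes were led by Gadd45b, a stress-inducible gene known as a coactivator of CAR in mouse liver. Gadd45b had 10, 15, 6, 42 and 16 normalized counts in untreated replicates 1 to 5 and 1454, 1548, 1544, 1597 and 1201 in TCPOBOP replicates 1 to 5. The treated libraries varied by little and lay far above all untreated ones, with means of 17.8 ± 14.1 and 1468.8 ± 158.3 (SD, n = 5), a log2 fold change of 6.36 ± 0.47 (SE) and an edgeR adjusted p of 5.30e-05. Its relative Gadd45a rose from 44 to 168 to 533 to 916 (3.11 ± 0.37), with the listed non-coding gene E230016M11Rik overlapping it on the opposite strand. The AP-1 subunit Fosl2 rose from 115 to 222 to 1233 to 1599 (3.20 ± 0.21) and Jun, its partner, by 1.34. These are the 4 called genes among 8 listed of a list of 48 early growth genes (median 1.66), beside 67.6% called over all tested genes. Myc was not called, at 96.8 ± 112.0 and 382.8 ± 65.0 normalized counts. The immediate early gene Egr1 was not called either, with 1698 normalized counts in untreated replicate 3 and 95 to 247 in the other untreated libraries.

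Of 65 genes of DNA replication and S phase 16 are in the table and 15 were tested, with 9 higher, 1 lower and 5 not called (median 1.61). Over all tested genes 51.4% were higher, with a median of 1.35, so the list stands near the whole table. Uhrf1, which couples DNA methylation to replication, had 6, 9, 20, 21 and 28 normalized counts in untreated replicates 1 to 5 and 131, 52, 155, 226 and 143 in TCPOBOP replicates 1 to 5 (log2 fold change 3.07 ± 0.46, edgeR adjusted p = 0.0070). The replicative helicase subunits Mcm5 and Mcm2 rose by 2.13 ± 0.31 and 2.04 ± 0.23, Mcm5 from 37 to 87 to 132 to 322 and Mcm2 from 60 to 86 to 193 to 400 normalized counts. In each of these genes TCPOBOP replicate 2 was the lowest treated library. Clspn, a checkpoint adaptor at the fork, rose from 3 to 10 to 12 to 33 and lost its call in 8 of 10 fits that left out 1 library (edgeR adjusted p = 0.061 to 0.128). Rrm2, the small subunit of ribonucleotide reductase, rose by 1.69. Mcm10, a replication initiation factor, was the exception and fell from 1761.2 ± 333.9 to 616.2 ± 73.7 normalized counts (SD, n = 5). The licensing factor Cdc6 was not tested, with 3 to 10 normalized counts in untreated and 11 to 70 in treated libraries. The number of called genes in this list was 6 without untreated replicate 2, 3 or 4 or without TCPOBOP replicate 1, 3 or 5, and 0 within run A.

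All 11 listed members of a list of 73 G2/M and mitosis genes had higher means with TCPOBOP, as did 494 of all 719 listed genes. Of the 9 tested, 1 was called, beside 67.6% of all tested genes. That gene was Ect2, a GTPase exchange factor of cytokinesis, which rose from 18 to 51 to 141 to 201 normalized counts (2.33 ± 0.31). Nuf2, Foxm1 and Cdc20 had fitted log2 fold changes of 2.24, 1.74 and 1.72 with edgeR adjusted p of 0.396, 0.113 and 0.440. Cdc20 ran from 10 to 29 in untreated and was 56, 15, 33, 109 and 50 in TCPOBOP replicates 1 to 5, so that the groups overlapped at replicate 2. Called G2/M genes numbered 2 without untreated replicate 2 or TCPOBOP replicate 2. None of 29 G1 cyclins, CDKs and inhibitors, Ccnd1 included, is in the table, and their levels were not analysed here.

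**Figure D3:**
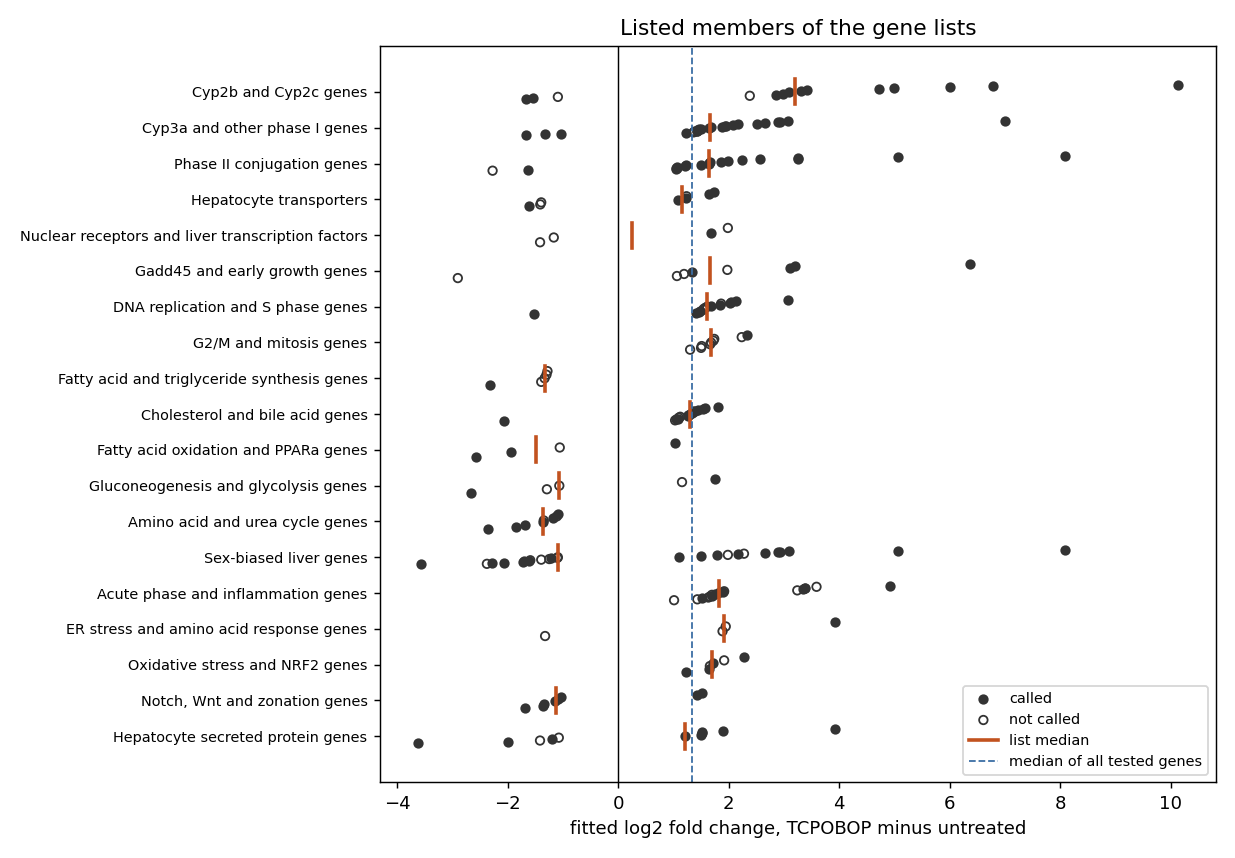
Each point is the fitted log2 fold change (TCPOBOP minus untreated, horizontal axis) of a tested member of a gene list with at least 4 tested members, filled where called and open where not, with a bar at the list's median. The dashed line marks the median of all 679 tested genes, 1.35, and the Cyp2b and Cyp2c genes reach farthest to the right, and the amino acid and fatty acid synthesis lists have their medians left of 0.

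The higher genes included 12 enzymes of the mevalonate and sterol route. Of 42 cholesterol and bile acid genes 17 are in the table, all 17 with groups that do not overlap (82.0% over all tested genes), with 13 higher, 1 lower and 3 not called (median 1.30). Hmgcs1, which makes HMG-CoA for sterol synthesis, had 3978, 4224, 2651, 8733 and 4512 normalized counts in untreated replicates 1 to 5 and 14522, 11334, 17597, 20607 and 20722 with TCPOBOP (log2 fold change 1.81 ± 0.31, edgeR adjusted p = 0.0161, not called in 4 of 10 fits that left out 1 library). Untreated replicate 4 was the highest control for this gene. Msmo1, a sterol demethylating oxidase, and Fdps, farnesyl diphosphate synthase, rose by 1.58 ± 0.23 and 1.54 ± 0.19. Mvk, Pmvk, Idi1, Fdft1, Sqle, Lss, Cyp51, Nsdhl and Hsd17b7, enzymes along the same route, rose by 1.05 to 1.45. Cyp7b1, of the alternative bile acid pathway, fell from 8659, 7450, 5117, 8790 and 3802 normalized counts to 1539, 1369, 1186, 1921 and 2119 (-2.06 ± 0.27). Called genes in this list numbered 9 without untreated replicate 1, 16 without untreated replicate 4 and 0 within run A. With factors computed over the listed genes alone the median of this list was 0.14.

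The falls were led by non-coding genes, steroid enzymes and a hormone carrier. Gm3734, an intergenic non-coding RNA gene, had 433, 534, 357, 389 and 433 normalized counts in untreated replicates 1 to 5 and 10, 15, 6, 7 and 18 in TCPOBOP replicates 1 to 5, a log2 fold change of -5.21 ± 0.32 (SE, edgeR adjusted p = 1.29e-05). Serpina7, thyroxine-binding globulin, fell from 237, 328, 398, 482 and 377 to 16, 39, 35, 32 and 26 (-3.62 ± 0.29, adjusted p = 0.000110). Both genes separated the groups by a wide margin. Olig1, a transcription factor of the oligodendrocyte lineage, fell from 33 to 104 to 1 to 9. Hectd2os, from 167 to 611 to 20 to 47, overlaps Hectd2 on the opposite strand, which fell by 3.02, and reads of the pair cannot be told apart. Gm36041, overlapped by the listed Gm48877, and A630031M04Rik are non-coding and fell from 31 to 233 to 2 to 16 and from 19 to 83 to 0 to 9. A630031M04Rik was not called in 7 of 10 fits that left out 1 library (edgeR adjusted p = 0.0663 to 0.143).

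Hsd3b5, a 3-ketosteroid reductase expressed in male mouse liver, had 6989, 8072, 2739, 2914 and 2579 normalized counts in untreated replicates 1 to 5 and 245, 126, 149, 939 and 502 in TCPOBOP replicates 1 to 5. In both groups the run B libraries, untreated replicates 1 and 2 and TCPOBOP replicates 4 and 5, were the highest, and within runs A and B the log2 fold changes were -3.98 and -3.39 beside -3.57 ± 0.62 over all libraries. Hsd3b5 was not called without TCPOBOP replicate 1, 3 or 5 (edgeR adjusted p = 0.0554 to 0.0747). Its neighbour Hsd3b4 fell from 227 to 841 to 11 to 103 (-3.24 ± 0.64, edgeR adjusted p = 0.0431), and it was called on leaving out TCPOBOP replicate 4 but no other single library (adjusted p = 0.0513 to 0.146). Both are overlapped by the annotated span of Zfp697 on the opposite strand. Hsd3b5 belongs to a list of 66 sex-biased liver genes, 27 of them in the table and 25 tested, with 10 higher, 7 lower and 8 not called. Over all tested genes 51.4% were higher and 16.2% lower. The list holds genes known as female-biased that were higher, such as Cyp2b13 (from 159 to 241 to 1478 to 1809 normalized counts, 3.09 ± 0.16), Cyp3a16 (2.66), Cyp3a41b, Cyp3a44, Cyp2a4 (from 829 to 2230 to 2999 to 5289) and Sult3a1. It also holds genes known as male-biased that were lower, such as Hsd3b5, Cyp7b1, Slco1a1, Nudt7 (-2.28) and Selenbp2 (-1.22). These examples were chosen after the values were seen, no split by sex was tested, and other members were not called, among them Cyp2c69, Cux2, Prom1, Susd4, Ihh, Serpina4-ps1, Fabp5 and Keg1. Cyp2c69 was lower on average, with mean normalized counts of 1416.6 and 665.6. Called genes of the list numbered 11 without TCPOBOP replicate 1.

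Lower genes also included enzymes of amino acid and energy metabolism. Of 53 amino acid and urea cycle genes 8 are listed, with 6 lower, none higher and 2 not called (median -1.35), beside 16.2% lower among all tested genes. Got1, the cytosolic aspartate aminotransferase, had 2386, 2474, 9259, 3106 and 9522 normalized counts in untreated replicates 1 to 5 and 1141, 1059, 1106, 924 and 1018 in TCPOBOP replicates 1 to 5 (-2.35 ± 0.42). Untreated replicates 3 and 5 carried most of that mean, while the treated libraries were alike. Ass1, argininosuccinate synthase of the urea cycle, fell from 39082 to 96180 to 15376 to 23450 (-1.68 ± 0.26). Bhmt, betaine-homocysteine methyltransferase, fell from 29268 to 56735 to 6876, 26841, 9689, 8708 and 10104 (-1.84 ± 0.37, edgeR adjusted p = 0.0489), with TCPOBOP replicate 2 the highest treated library. Gls2, Cbs and Oat fell by 1.36, 1.18 and 1.09. The count of 6 fell to 3 without untreated replicate 2 or 5, to 2 without untreated replicate 3 or TCPOBOP replicate 1 or 2, and to 1 without TCPOBOP replicate 3, 4 or 5. Bhmt was not called in 9, Gls2 in 7 and Got1 in 6 of the 10 fits that left out 1 library.

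Of 42 genes of fatty acid and triglyceride synthesis 5 are listed, all lower on average, as were 225 of all 719 listed genes. Of the 5, 1 was called, beside 67.6% of all tested genes. This was Lpin1, a phosphatidate phosphatase, at 1392, 1408, 4088, 2246 and 5664 normalized counts without and 835, 547, 626, 517 and 436 with TCPOBOP (-2.32 ± 0.41, edgeR adjusted p = 0.0194). It was not called without untreated replicate 3 or without TCPOBOP replicate 2, 3, 4 or 5, and 2 genes of the list were called without untreated replicate 1 or 4. Scd1, the stearoyl-CoA desaturase, was not called, with 59719 to 213883 normalized counts in untreated and 23056 to 66161 in TCPOBOP libraries, which overlap. Fabp5, Elovl5 and Plin4 were not called either, at -1.39, -1.30 and -1.28. Of 50 fatty acid oxidation and PPARα genes 4 are listed. The acyl-CoA thioesterases Acot1 and Acot2, close paralogs, fell by 2.57 ± 0.33 and 1.93 ± 0.33, Cyp4f15 rose by 1.03 ± 0.15, and Fabp1 was not called (-1.06). Acot2 was not called without untreated replicate 3 or TCPOBOP replicate 1, 3, 4 or 5 (edgeR adjusted p = 0.0528 to 0.0712), nor Cyp4f15 without untreated replicate 4, where its log2 fold change was under 1, so that in each of these fits 2 of the list were called rather than 3. The direction of Cyp4f15 turned under both alternative scalings computed over the listed genes. Of 47 genes of gluconeogenesis and glycolysis 5 are listed (median -1.06). Ppp1r3c, a glycogen-targeting phosphatase subunit, fell from 315 to 1303 to 70 to 159 (-2.66 ± 0.40) and Pfkfb4, an isoform of the kinase that sets fructose 2,6-bisphosphate, rose from 19 to 34 to 59 to 136 (1.76 ± 0.30, not called in 3 of 10 fits that left out 1 library). G6pc, Slc2a2 and Pfkfb3 had overlapping groups and were not called. Called genes here numbered 1 without untreated replicate 1, 2 or 5.

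All 8 listed genes among 37 of the Notch, Wnt and zonation list were called, beside 67.6% of all tested genes, with 6 lower and 2 higher (median -1.12). Lgr5 and Notum, targets of Wnt signalling around the central vein, fell from 94.4 ± 12.5 to 42.6 ± 9.5 and from 618.0 ± 60.7 to 302.4 ± 82.6 normalized counts (SD, n = 5), Notum being overlapped by listed antisense genes. The pericentral genes Slc1a2 and Oat fell with them, while Lect2 and Cyp1a2, which are also pericentral, rose by 1.52 and 1.42 (not called in 6 and 7 of 10 fits that left out 1 library), and the periportal genes Ass1 and Gls2 fell. The number called was 6 without untreated replicate 1 and 2 to 5 without any other single library.

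All 17 listed members of a list of 49 acute phase genes had higher means with TCPOBOP, as did 494 of all 719 listed genes. Of the 17, 7 were called and 10 were not (median 1.83). Over all tested genes 67.6% were called, with a median of 1.35. The number called depended on which libraries were kept. Among the fits that left out 1 library it was largest, at 14, without untreated replicate 4. Saa2, a serum amyloid A protein, had 214, 144, 477, 41869 and 351 normalized counts in untreated replicates 1 to 5 and 118353, 105831, 84336, 60893 and 80005 in TCPOBOP replicates 1 to 5. Lcn2, lipocalin 2, had 49, 18, 39, 3809 and 27 and then 11900, 10309, 9044, 7639 and 8565. In both genes untreated replicate 4 lay between the other controls and the treated livers, below every treated library. Over all libraries neither was called (edgeR adjusted p = 1.0 for each). Without untreated replicate 4 their log2 fold changes went from 3.38 to 8.24 and from 3.59 to 8.15, and both were called (edgeR adjusted p = 1.66e-05 and 8.44e-06). Hp, haptoglobin, went from 29552 to 41845 in 4 untreated libraries and 137082 in untreated replicate 4 to 150868 to 220569 with TCPOBOP. The acid glycoprotein genes Orm2 and Orm3 were called over all libraries and without untreated replicate 4, Orm3 with 69, 18, 10, 291 and 7 normalized counts before and 2345, 2356, 3439, 882 and 3032 after treatment. The carrier Hpx, hemopexin, rose from 56722 to 157481 to 210570 to 324259 (1.52 ± 0.28). In the 10 fits that left out 1 library, Orm3 lost its call in 9 (edgeR adjusted p = 0.0552 to 0.148), Orm2 in 8 (0.0557 to 0.108) and Hpx in 8 (0.0508 to 0.081). Called genes of the list numbered 14 without untreated replicate 4 and 3 without any other single library except TCPOBOP replicate 4, where the count stayed at 7. Within run B, which lacks untreated replicate 4, 12 were called, and within run A none. The metallothionein genes Mt1 and Mt2 followed the runs, with Mt2 at 14 and 16 normalized counts in the untreated and 52 and 711 in the treated run B libraries, and 576 to 4728 and 7959 to 8676 in those of run A. The part of the runs in these results was not tested.

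**Figure D4:**
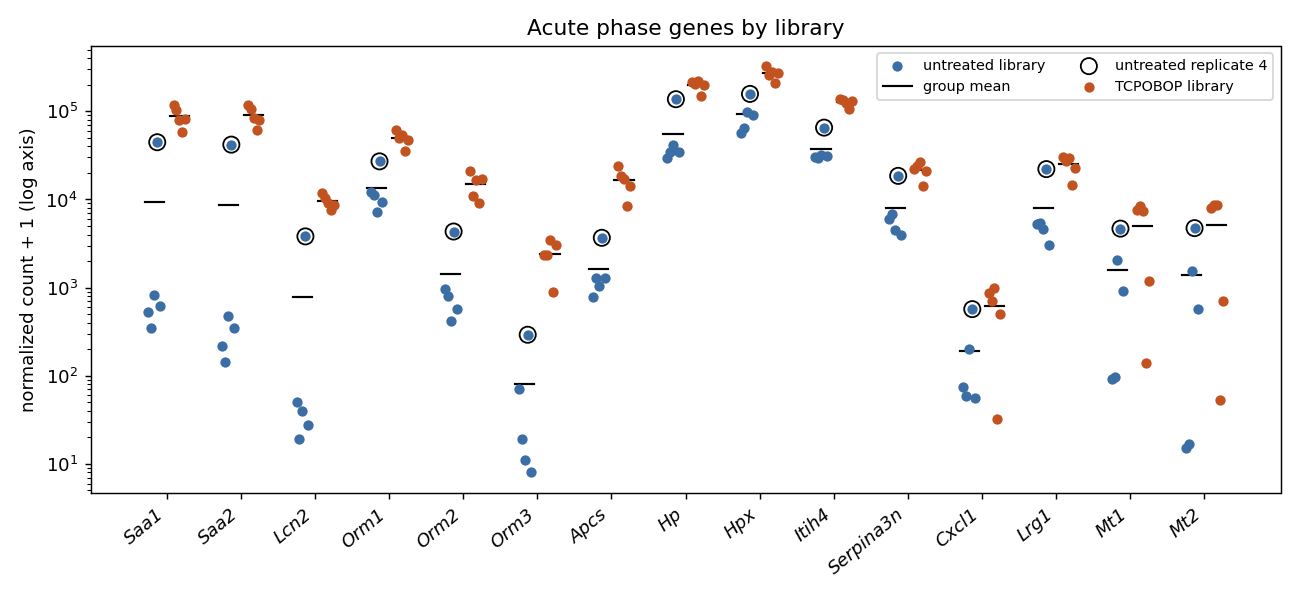
Normalized counts plus 1 (log axis) of 15 acute phase genes in each untreated and TCPOBOP library, with group means as black lines and untreated replicate 4 ringed. Untreated replicate 4 is the highest untreated library in every gene shown, such as 41869 for Saa2 against 144 to 477 in the other untreated libraries.

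Gdf15, a stress-induced cytokine of hepatocytes, had 167, 104, 67, 104 and 72 normalized counts in untreated replicates 1 to 5 and 1519, 1539, 1271, 2057 and 1382 in TCPOBOP replicates 1 to 5 (log2 fold change 3.92 ± 0.28, edgeR adjusted p = 4.68e-05). It was the called gene among 4 listed of 43 genes of ER stress and the amino acid response (median 1.92). Over all tested genes 67.6% were called and 51.4% were higher. The heat shock genes Hspa1a and Hspa1b had overlapping groups, and Hspb1 was lower on average, with 186 to 1780 normalized counts without and 250 to 389 with treatment. Of 33 oxidative stress and NRF2 genes 6 are listed and 4 were higher (median 1.69), near the share of 51.4% over all tested genes. These were Tsku, a secreted leucine-rich protein (from 992 to 4224 to 9743 to 11950), Cbr1, a carbonyl reductase, Ephx1, the microsomal epoxide hydrolase (whose direction turned with TMM factors over the listed genes), and Abcc4. Of 54 interferon-induced genes Ifi27l2b alone is listed, and it rose from 58 to 89 to 183 to 213. Of 31 clock genes Nr1d1 alone is listed and was not called, with 3319 and 3142 in untreated run B and 951 to 1327 in untreated run A libraries.

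Secreted proteins of hepatocytes moved both ways, with 6 higher, 3 lower and 2 not called of 11 listed among 61 (median 1.22). Over all tested genes 51.4% were higher and 16.2% lower. C3, the central complement component, took more reads than any other listed gene and rose from 136929 to 192540 to 398819 to 480191 normalized counts (1.51 ± 0.16). F11, coagulation factor XI, fell from 2171, 1721, 2071, 1677 and 2242 to 546, 431, 442, 524 and 529 (edgeR adjusted p = 8.22e-05). Inhbb, the activin B subunit, rose from 21 to 45 to 76 to 177. The listed genes together took 1739694 normalized counts in the mean untreated and 3844607 in the mean TCPOBOP library, 2.21 times as many. C3, Cyp3a11, Cyp2c29, Hpx and Hp made up 52.2% of that net rise.

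Few markers of other liver cells are in the table. None of the listed genes is among the markers of endothelial cells, T and NK cells, B and plasma cells, neutrophils, red cells, or adipocytes and muscle. Of 15 Kupffer cell and macrophage markers Marco is listed, with 73 to 272 normalized counts in untreated and 210 to 576 in TCPOBOP livers and no call. Of 12 cholangiocyte markers Prom1 (9 to 57 and 37 to 216) and Krt23 (5 to 46 and 1 to 12) are listed and neither was called, although 1 was called without TCPOBOP replicate 2. Of 13 stellate cell and fibroblast markers Lrat, which stores retinyl esters, fell from 268 to 389 to 113 to 166, and Timp1 was not tested, with 0 to 5 and 9 to 26. Of 16 pancreas acinar markers Pnliprp1 rose, as above, while Cela1 was not called and was lower on average, at 135 to 440 without and 78 to 144 with TCPOBOP. Summed, these 2 pancreas genes ran from 135 to 440 in untreated and from 150 to 216 in TCPOBOP livers. As the defining digestive enzyme genes are not listed, the part of pancreas tissue in the rise of Pnliprp1 was not tested.

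The effect of TCPOBOP was compared between the 2 runs by the interaction of treatment and run. No gene of 679 passed an adjusted p of 0.05 in edgeR, and the smallest adjusted p was 1.0. The adjustment counted all annotated genes rather than the 679 fitted, and each run holds few libraries. The lack of a passing gene therefore cannot show that the runs responded alike. An unadjusted p under 0.05 was found for 108 of the 679, more than chance alone gives at that threshold for independent genes. The listed genes may not be independent, and this excess was not tested. The 3 genes with the smallest p were Depp1, Rassf4 and Gadd45a, of which the first pair overlap on opposite strands. Depp1, a target of FOXO factors, had log2 fold changes of -0.49 in run A and -3.96 in run B, with 249 to 345 normalized counts in untreated libraries of run A against 1966 and 1362 in run B. Gadd45a had 44 to 61 normalized counts in untreated and 834 to 916 in TCPOBOP libraries of run A, and in run B 118 and 168 against 704 and 533.

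Some called genes lay side by side, and how often this occurs among listed or annotated genes was not tested. Runs of at least 3 called genes of 1 direction, each within 100 kb of the next, included 7 lower genes at chr3:98382461-98814443 with Hsd3b2, Hsd3b3, Hsd3b4, Hsd3b5 and Hsd3b6, and 7 lower genes at chr10:127660918-128007611 with the retinol dehydrogenases Rdh9 and Rdh16 and the steroid enzyme Hsd17b6. Rdh9 fell from 427 to 1236 normalized counts to 127 to 219, and Rdh16 and Hsd17b6 by 1.13 and 1.75 on the log2 scale. Among the higher genes, 6 at chr5:145436309-145879964 were Cyp3a genes or pseudogenes, and Gstm1, Gstm2 and Gstm3 lay among 5 at chr3:107963696-108101432. Chromosome 19, which carries the Cyp2c genes, held 8.33% of the higher protein-coding genes and 3.28% of all annotated ones. Counting genes of any type, it held 53 of the 719 listed genes and 28 of the 349 higher ones. An excess of calls over the listed genes was not tested. Chromosomes 5 and 4 held more of the higher protein-coding genes, at 9.47% and 9.09%, beside 5.74% and 6.05% of all annotated ones. Members of the runs named here are mostly paralogs of 1 family, which share sequence and are not independent. Other runs hold genes that share exons, such as Ugt1a1, Ugt1a2 and Ugt1a5. Of the 56 listed antisense genes, 43 overlap a listed protein-coding gene on the other strand, and all 43 such pairs had the same direction of means. Whether counting used strand was not stated, so such pairs cannot be told apart.

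Chromatin of untreated WT liver, measured in other libraries and not used to select the genes, was then read at the gene starts. H3K27ac marks active promoters and enhancers, ATAC-seq marks open chromatin, Lamin A/C marks contact with the nuclear lamina and H4K20me3 marks heterochromatin. Shares count genes with a peak or island within 1000 bp of an annotated start. Among higher protein-coding genes (by the reference annotation) 74.1% carried H3K27ac (197 of 266, exact 95% binomial interval 68.4 to 79.2), against 73.0% of lower ones (65 of 89, 62.6 to 81.9) and 54.4% of all 21951 protein-coding genes. ATAC-seq peaks gave 59.4%, 62.9% and 43.1%. Lamin A/C islands covered the starts of 8 of the 266 higher genes (3.01%, 1.31 to 5.84), none of the 89 lower genes and 12.4% of all. For H4K20me3 the shares were 2 of 266 (0.752%), none of 89 and 10.3%. The intervals of the higher and lower genes overlap for every mark, so no difference between the directions was resolved. A gene needs reads in liver to be listed, and the share among all genes includes genes without them. There is 1 list per mark, so the spread between livers is unknown, and intervals cover counting error only.

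Of the 8 genes with the largest rises, 4 of them pseudogenes or antisense, none had an H3K27ac or ATAC-seq peak within 1000 bp of a start in untreated liver, and none lay in a Lamin A/C or H4K20me3 island there. Of the 8 largest falls, 3 had H3K27ac and 4 an ATAC-seq peak. Gadd45b and Cyp2c55 had neither mark, Akr1b7 had an ATAC-seq peak of 12.8-fold enrichment alone, and Cyp2c29 had both. All 8 had low counts or none in untreated liver, and no comparison with other genes was tested. Over all 349 higher genes of any type H3K27ac stood at 62.5%. The 131 without H3K27ac at the start had a median untreated mean of 31.0 normalized counts and a median log2 fold change of 2.23, and the 218 with it had 332.8 and 1.58. These medians are a description and were not tested.

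**Figure D5:**
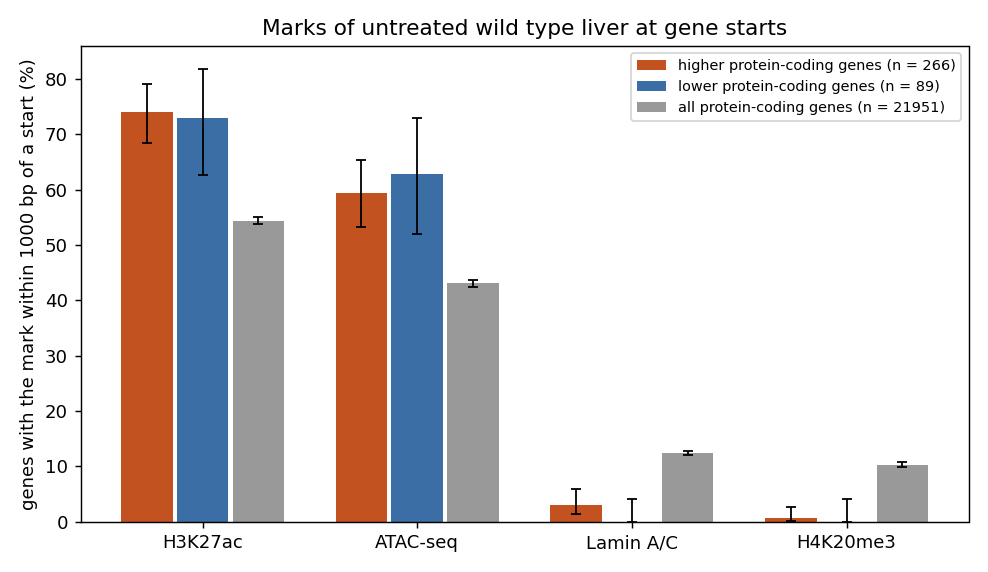
Bars give the share of protein-coding genes with each mark of untreated WT liver within 1000 bp of an annotated start (percent), for 266 higher genes, 89 lower genes and all 21951, with exact 95% binomial intervals as error bars. H3K27ac and ATAC-seq shares of the changed genes stand above those of all genes and Lamin A/C and H4K20me3 shares below, with higher and lower genes alike within their intervals.

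Exact DR4 repeats were rare. In promoters from 250 bases before to 50 after the RefSeq start, none of 228 higher and none of 76 lower genes with a promoter sequence held one, and 8 of all 27025 genes did (0.0296%). A count of 0 allows up to 1.60% and 4.74% by the exact interval. In a window of 5000 bases before the start, 5 higher genes (2.19%, 0.716 to 5.04) and 2 lower genes (2.63%, 0.320 to 9.18) held an exact repeat, against 0.870% of all genes (0.762 to 0.988). The interval of each direction reaches down to the share of all genes or below it. With 1 mismatch the shares were 14.9%, 13.2% and 13.3%. The 7 exact repeats are shown because they are all that this search found near called genes, with the hexamers in capitals, 5′ to 3′ on the strand of the match.
Alas1, higher, chr9:106251185-106251200, plus strand: AGTTCAagcaAGGTCA
Hpx, higher, chr7:105603344-105603359, minus strand: AGGTCAgtcaAGGTCA
Sult5a1, higher, chr8:123162917-123162932, minus strand: AGTTCAactaAGGTCA
Fam47e, higher, chr5:92568560-92568575, minus strand: AGGTCAgtggAGTTCA
Siva1, higher, chr12:112640271-112640286, minus strand: AGGTCAgaagAGGTCA
Bhmt, lower, chr13:93642161-93642176, minus strand: AGGTCAcagaAGGTCA
Rdh16, lower, chr10:127797422-127797437, minus strand: AGGTCAacacAGTTCA
They lie 2969 to 4645 bases before the start of their genes. The repeats near Hpx and Sult5a1 fall in ATAC-seq peaks of untreated liver and the other 5 in no ATAC-seq or H3K27ac peak. Nothing about binding follows from these letters.

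Of the 719 genes, 506 also appear in the table of TCPOBOP-treated livers with Setd8 deleted in hepatocytes (Setd8-LKO), 240 of them higher and 91 lower here. That table uses the same 5 untreated libraries and the same normalized values for them, so the 2 comparisons share controls. Cyp2b10 had 35767, 31592, 66038 and 55164 normalized counts in the 4 Setd8-LKO TCPOBOP libraries, beside 53827 to 61594 in the WT TCPOBOP livers. Gadd45b had 476, 636, 1248 and 669 there, beside 1201 to 1597, and Hsd3b5 had 2 to 5, beside 126 to 939.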

How the data were processed

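Total RNA of whole liver was sequenced, and per the labels and methods reads were aligned to mm10 with HISAT2 and counted and normalized with metaseqR. The submitters' processing notes also name Trimmomatic 0.39, MACS2 2.2.7.1 and deepTools 3.3.2. The deposited table gives raw read counts per gene and the authors' normalized counts, a score rounded to whole numbers that equals the raw count times 1 factor per library (1.0284 to 1.3938). The columns with the authors' own fold changes (ratio) and p-values were not used, nor were 114 further per-library columns of both tables. The deposited peak lists give fold enrichment as a ratio and -log10 p, with 1 list per condition, and the deposited islands a score. Whether replicates were pooled, and whether counting used strand, is not given in the sources used here.

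Raw counts were fitted in edgeR 4.0.16 (R 4.3.3) by the quasi-likelihood test with the authors' factors as offsets, without a covariate, after edgeR's filter with a minimum count of 10. Adjusted p-values are Benjamini-Hochberg over 55450 annotated genes. Calls need an adjusted p under 0.05 and a log2 fold change of at least 1. The script was tested on simulated data. DESeq2 1.42.0 and limma 3.58.1 were alternatives, limma with a pseudocount of 1. Exact two-sided permutation tests of single genes enumerated all 252 assignments of the libraries to groups (scipy 1.17.1). Per the methods the libraries of a group are biological replicates, and the labels name no animals. Binomial intervals are exact at 95%, and all intervals cover counting error only.

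The genes, lists and tests were chosen with earlier results of these data known. Named genes were the 8 largest rises and falls among called genes with groups that do not overlap, Cyp2b10, Cyp2c55, Cyp3a11 and Gadd45b, up to 4 of the most changed members of each list (all members of lists with 6 or fewer), the 5 genes with the highest mean count, and the 3 with the smallest p for a difference between runs. Other genes named as members of a list, neighbours or overlapping genes were chosen after their values were seen. The depth of the libraries is not known, only the sum over listed genes. Same-numbered libraries did not deviate together (r of -0.244, 0.0127, 0.237, -0.414 and -0.0862), so numbers were not taken as pairs.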

Additional observations from a re-analysis of the deposited data

Results flagged for a closer look

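In 202 groups of 5 libraries (101 named genes, 2 groups each), 16 had an extreme library by Dixon's test. Chance alone flags about 1 in 20 groups where values follow a normal distribution. The test was run on untransformed counts, and in each of the 16 the extreme library was the highest. The chance rate may therefore be higher here, and the 16 were not compared with it. Untreated replicate 4 was the extreme library in 8 of the 16. It had 41869 normalized counts of Saa2 (144 to 477 in the other untreated libraries), 3809 of Lcn2 (18 to 49), 137082 of Hp (29552 to 41845), 4327 of Orm2 (412 to 971) and 291 of Orm3 (7 to 69), all acute phase genes. It also had 2 of Saa-ps, against 0 in each of the others, 42 of Gadd45b (6 to 16) and 5650 of Msmo1 (2367 to 3293).

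TCPOBOP replicate 2 had 26841 normalized counts of Bhmt (6876 to 10104 in the other treated libraries), 92 of Acot1 (30 to 47) and 54 of Acot2 (17 to 26), 3 genes that were lower with TCPOBOP. TCPOBOP replicate 4 had 45592 of Gstm3 (21647 to 25856). Egr1 had 1698 in untreated replicate 3 (95 to 247) and 151 in TCPOBOP replicate 1 (32 to 52). Gm45225 and Sult3a1 were flagged by a single read, with 1 normalized count in untreated replicates 5 and 3 and 0 elsewhere in that group.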

How the results depend on the processing

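No setting called a gene in the opposite direction. Beside 459 calls (349 higher, 110 lower), DESeq2 size factors over the listed genes gave 262 (67 and 195) and TMM 259 (61 and 198). These scalings moved the median log2 fold change by -1.17 and -1.25, and no scaling by -0.158, because they centre a table of genes selected as changed. The DESeq2 Wald test gave 626 calls with 178 lower. Runs A and B alone gave 97 (89 and 8) and 249 (177 and 72). A log2 fold change of at least 2 left 166 (138 and 28), and an adjusted p under 0.01 left 281 with 48 lower. Leaving out 1 library gave 335 to 439 calls, 279 to 337 higher and 56 to 102 lower, the fewest without TCPOBOP replicate 3 and the most without untreated replicate 4. With a replicate block, although the numbers do not pair the samples, 159 were called (145 and 14). Members of the gene lists called went from 129 to 69, 68, 48 (replicate block), 37 (run A), 45 and 77 under these settings, and 93 to 127 on leaving out 1 library. Named genes called went from 69 to 36 with the replicate block, 27 within run A and 55 to 69 on leaving out 1 library.

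Fitted log2 fold changes turned for Cyp4f15 (-0.152 with size factors, -0.224 with TMM), Pfkfb3 (-0.0883), Ephx1 (-0.0247) and Marco (-0.03) with TMM, and Hspb1 (0.789) within run B. For marks, H3K27ac at all protein-coding genes was 56.8% within 5000 bp, 52.4% at a -log10 p of at least 30 and 26.7% over all annotated genes. Under the first pair of these settings ATAC-seq went from 51.6% to 68.5% and 24.6% of the 349 higher genes of any type, from 61.8% to 72.7% and 32.7% of the 110 lower ones, and to 50.7% and 23.1% of all protein-coding genes, with 21.4% of all annotated genes. Over all annotated genes Lamin A/C was 18.6% and H4K20me3 16.4%. DR4 repeats in 5000 bases were found in 2.19% of higher and 0.870% of all genes. With 1 mismatch as well, an alternative chosen after seeing the data, they were found in 14.9% of higher, 13.2% of lower and 13.3% of all genes, and with 1 mismatch in the 300-base promoter in 0.714% of all genes. Other causes were not tested. The table limits what can be said, since unlisted genes and library totals were not analysed here.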
